A study of Mus musculus with 9 samples.

Results

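The genes described here are 10 genes of the actin cytoskeleton, its vimentin partner network and their transcriptional control: Actb, Actg1, Cfl1, Pfn1, Vim, Tpm3, Tpm4, Vcl, Flna and Srf. They were chosen from the readout itself, because Actb, a common reference gene, was lower after particle treatment, so all values of these genes against untreated cells are descriptions and carry no test. They are 10 of the 54432 gene IDs in the count table, and all 10 passed the filter on low counts that left 12637 genes for testing.

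Actin monomers assemble into filaments that carry the shape, migration and phagocytosis of macrophages, and the beta and gamma forms encoded by Actb and Actg1 are the non-muscle actins of most cells. Profilin delivers monomers to growing filament ends, cofilin severs old filaments, tropomyosins coat filaments, filamin cross-links them and vinculin ties them to integrin adhesions. Serum response factor (SRF) binds a DNA element named the CArG box; its MRTF cofactors are held back by free actin monomers, which links the transcription of many actin genes to the state of the filaments.

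RNA sequencing was done on RAW 264.7 cells, a mouse macrophage line, to ask how macrophages respond to triglyceride-rich particles of different size. The 3 CTRL libraries came from untreated cells. The 3 VLDLsep libraries came from cells exposed during 6 h to VLDL-sized emulsion particles at 1 mM. The 3 CHYLsep libraries came from cells exposed to chylomicron-sized particles for the same time. By the methods of the study, both sizes were given at the same dose. For the chylomicron-sized particles, 1 figure legend of the study gives a lower dose, 0.5 mM. All cells grew in medium with fetal calf serum, and the particles were artificial, made of sunflower oil emulsified with caseinate. Material of a condition was pooled within an experiment before sequencing, so p-values measure the spread between these pooled libraries of 1 cell line. Both particle groups are compared with the same 3 CTRL libraries, and their differences from CTRL are therefore not independent of each other.

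Each library held between 22393893 and 22856792 estimated counts. Levels are given as cpm, counts-per-million after TMM scaling, and a mean is followed by its SD over n = 3 libraries. A gene is named as called where limma-voom gave a Benjamini-Hochberg adjusted p under 0.05 over the 12637 genes tested. In bulk RNA, fewer cells of a type and less RNA per cell cannot be told apart.

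The macrophage identity of the cells was checked with 11 marker genes, all 11 of which passed the filter. Lyz2 was the most abundant of them. Their summed level was 6451, 6524 and 6575 cpm in CTRL, 5908, 5890 and 5770 cpm in VLDLsep and 5924, 6119 and 5923 cpm in CHYLsep. The sum thus moved with treatment, and its part in the results was not tested. Among markers of other cells, all 4 epithelial genes were at 0 in every library. The 7 fibroblast genes summed to between 1.59 and 2.61 cpm with Pdgfra as the most abundant and 2 at 0, the 4 smooth muscle genes to between 0.83 and 2.69 cpm with Acta2 as the most abundant, and the 3 endothelial genes to between 0.958 and 1.97 cpm with Cdh5 as the most abundant. The 3 lymphocyte genes, of which 1 was at 0, summed to at most 0.0899 cpm.

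The replicate 3 libraries stood apart. Within a group, the root mean square distance between the log2 cpm profiles of replicates 1 and 2 was 0.211 in CTRL, 0.217 in VLDLsep and 0.205 in CHYLsep, whereas replicate 3 lay between 0.269 and 0.294 from its group's other libraries. The VLDLsep and CHYLsep libraries of replicate 3 were 0.222 apart, closer than either was to its own group. Values without the replicate 3 libraries of every group are therefore given for the members as well.

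Particle treatment moved a large part of the transcriptome. In VLDLsep against CTRL, limma-voom called 2256 genes lower and 2244 genes higher, so that 49.9% of the calls were higher. In CHYLsep against CTRL it called 1639 lower and 1610 higher (49.6% higher), and 4949 genes in all in place of 3249 with the replicate number as a block. The balance of directions rests on the scaling: with library size only, the calls split into 3311 lower and 1507 higher for VLDLsep (31.3% higher) and 2513 lower and 1068 higher for CHYLsep (29.8% higher). With scaling to 16 reference genes, the splits were 3727 lower and 1294 higher (25.8% higher) and 2770 lower and 928 higher (25.1% higher). Over all genes tested, the median log2 fold change under these scalings was -0.09 and -0.13 for VLDLsep and -0.08 and -0.10 for CHYLsep. Relative to that median, each member had the values given below to within 0.01: Actb in VLDLsep had a log2 fold change of -0.63 under reference gene scaling, against a median of -0.13, a difference of -0.50.

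Beta-actin mRNA was lower in both particle groups, and lowest with VLDL-sized particles. With all 9 libraries, the difference between the sizes was not called (limma-voom adjusted p = 0.63). Actb (ENSMUSG00000029580, chromosome 5, 142903115 to 142906754 of GRCm38, minus strand) stood at 5535, 5309 and 6083 cpm in the CTRL libraries of replicates 1, 2 and 3, at 4032, 4036 and 3888 cpm in VLDLsep and at 4552, 4678 and 4272 cpm in CHYLsep. Every VLDLsep library lay below every CHYLsep library, and every CHYLsep library below every CTRL library. The group means were 5642 ± 398, 3986 ± 84.2 and 4501 ± 208 cpm. The log2 fold change against CTRL was -0.50 ± 0.058 (SE) in VLDLsep, 0.707 times the CTRL level, and -0.32 ± 0.058 in CHYLsep, 0.798 times the CTRL level. The highest CTRL value came from replicate 3, and without the replicate 3 libraries the log2 fold changes were -0.43 and -0.23.

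Actg1, which encodes gamma-actin (ENSMUSG00000062825, chromosome 11, 120345690 to 120348542, minus strand), had the same order of groups. It stood at 3550, 3450 and 3927 cpm in CTRL, at 2619, 2674 and 2687 cpm in VLDLsep and at 3070, 3260 and 2989 cpm in CHYLsep. No library of a group overlapped another group. Its log2 fold change was -0.45 ± 0.057 in VLDLsep and -0.23 ± 0.057 in CHYLsep, or -0.40 and -0.15 without the replicate 3 libraries. The ratio of Actb to Actg1 counts within a library was 1.55 ± 0.00999 in CTRL and 1.45 ± 0.0295 in CHYLsep, where every library lay below CTRL. In VLDLsep it was 1.5 ± 0.0473 and overlapped CTRL, but lay below CTRL within each replicate number. Together the actins took 0.955%, 0.92% and 1.02% of all counts in CTRL, 0.651%, 0.66% and 0.634% in VLDLsep and 0.758%, 0.785% and 0.705% in CHYLsep. The 10 members together took between 1.81% and 1.86% in CTRL, between 1.38% and 1.44% in VLDLsep and between 1.46% and 1.60% in CHYLsep.

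**Figure D1:**
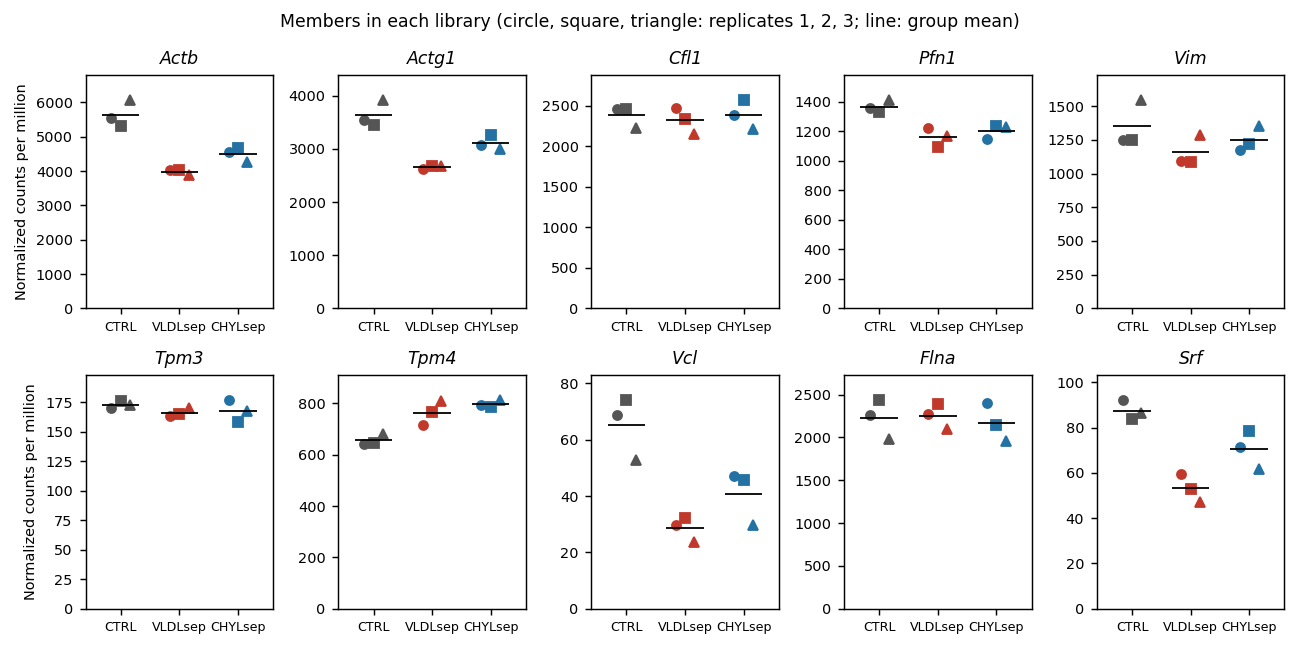
Level of each of the 10 members in each library (vertical axis, counts-per-million after TMM scaling, from 0) by group (horizontal axis); circles, squares and triangles are replicates 1, 2 and 3, and lines are group means. Actb, Actg1 and Srf fall into 3 separate groups of libraries, with VLDLsep lowest, while Tpm4 is higher in every particle library than in any CTRL library.

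Sequence that the actin genes share with other genes bears on how firmly their counts are placed. Of the distinct 31-base words in Actb transcripts, 23.6% also occurred in transcripts of other genes, led by Lrrc58 with 15.2%. Lrrc58 stood at between 79.8 and 88.5 cpm in the 9 libraries, far below Actb. Of the words of Actg1, 40.2% were shared, mostly with Gm12715 (36.6%), which stood at no more than 0.55 cpm. The actin transcripts shared 106 words with each other, of 2821 in Actb and 2813 in Actg1.

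Because Actb often serves as a denominator in expression assays, its counts were divided by those of 16 other reference genes in the same library, which needs no scaling between libraries. The ratio was below all CTRL libraries in every VLDLsep library for 16 of 16 genes and in every CHYLsep library for 15 of 16. The remaining ratio overlapped CTRL in CHYLsep. Against Gapdh, a glycolytic enzyme, the ratio was 4.13, 4.12 and 4.53 in CTRL, 2.70, 2.83 and 3.12 in VLDLsep and 3.28, 3.07 and 2.91 in CHYLsep. A ratio shows unequal change and does not show that the denominator held its level. Since the set was chosen for the fall of Actb, and all 16 ratios share it as numerator, they describe that fall and do not test it.

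**Figure D2:**
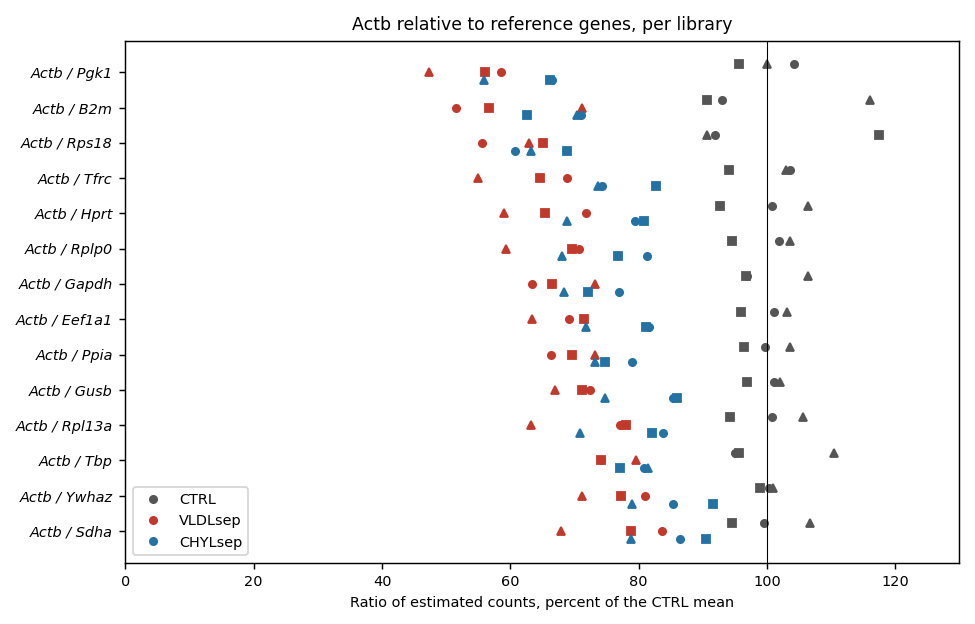
Ratio of Actb counts to those of each of 14 of the 16 reference genes within a library (horizontal axis, percent of the CTRL mean), with 1 line of points per reference gene; colors mark the groups, and circles, squares and triangles replicates 1, 2 and 3. All VLDLsep points and all CHYLsep points lie left of all CTRL points for each of the 14 genes drawn.

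The reference genes themselves were mostly not called. Against CTRL, 3 of 16 were called in each particle group, 1 lower and 2 higher, and the list median log2 fold change was 0.06 in both, beside 0.00 over all genes tested. Among those called higher, Pgk1, a glycolytic kinase, rose from 1132 ± 78.7 to 1490 ± 139 cpm in VLDLsep (limma-voom adjusted p = 0.0023) and to 1440 ± 83.6 in CHYLsep (adjusted p = 0.0069). Gapdh stood at 1324 ± 31.1, 1387 ± 128 and 1459 ± 67.4 cpm, and Ppia, encoding cyclophilin A, at 1694 ± 59.7, 1721 ± 115 and 1788 ± 76.9 cpm in CTRL, VLDLsep and CHYLsep, neither called.

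Some of these readings depend on the fit. With the replicate block, limma-voom also called 4 reference genes in VLDLsep: Hprt (adjusted p = 0.029), Ywhaz (0.03), Tfrc (0.016) and B2m (0.01), the last called in CHYLsep too (0.021). Single libraries mattered for some of them in VLDLsep: limma-voom called Hprt without VLDLsep replicate 1 (adjusted p = 0.041), Tfrc without the same library (0.027), and B2m (0.0084) and Sdha (0.021) without VLDLsep replicate 3. Without the replicate 3 libraries of every group, Gapdh was called higher in VLDLsep (log2 fold change 0.15, limma-voom adjusted p = 0.021) and CHYLsep (0.15, 0.031). The direction of Gusb, a lysosomal glucuronidase, rested on the scaling, with a log2 fold change of 0.01 with TMM and -0.11 in VLDLsep when scaled to the reference genes, where the median of all genes was -0.13; the turn follows this common shift.

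The actin monomer partners differed from each other. Pfn1 encodes profilin 1 (ENSMUSG00000018293, chromosome 11, 70651850 to 70654644, minus strand) and stood at 1356, 1333 and 1414 cpm in CTRL, 1219, 1090 and 1170 cpm in VLDLsep and 1146, 1236 and 1228 cpm in CHYLsep. Both particle groups lay below CTRL in every library and overlapped each other. Its log2 fold change was -0.24 ± 0.055 in VLDLsep and -0.18 ± 0.055 in CHYLsep, or -0.22 and -0.18 without the replicate 3 libraries. Cfl1, encoding cofilin 1 (ENSMUSG00000056201, chromosome 19, 5490455 to 5495201, plus strand), ranged from 2153 to 2577 cpm over the 9 libraries, and its groups overlapped. Its log2 fold change was -0.04 ± 0.071 in VLDLsep and 0.00 ± 0.071 in CHYLsep.

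Relative to beta-actin, both monomer partners were higher after particle treatment. This restates the fall of Actb, for which the set was chosen, since Cfl1 itself changed little and Pfn1 was lower than in CTRL. The ratio of Cfl1 to Actb counts was 0.425 ± 0.0522 in CTRL, 0.582 ± 0.03 in VLDLsep and 0.531 ± 0.0172 in CHYLsep, and that of Pfn1 to Actb 0.243 ± 0.00951, 0.291 ± 0.0183 and 0.268 ± 0.0182. In both ratios every particle library lay above every CTRL library. Of the 31-base words of Cfl1, 22.6% occurred in other genes, led by Snx32 (14.3%) at no more than 2.77 cpm, and of those of Pfn1 0.329%.

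Of the tropomyosins, Tpm4 was higher after particle treatment and Tpm3 changed little. Tpm4 (ENSMUSG00000031799, chromosome 8, 72134975 to 72153142, plus strand) stood at 643, 645 and 682 cpm in CTRL, 715, 765 and 808 cpm in VLDLsep and 795, 785 and 814 cpm in CHYLsep. It was the 1 member with every library of both particle groups above CTRL, and the particle groups overlapped each other. The log2 fold change was 0.21 ± 0.053 in VLDLsep and 0.28 ± 0.053 in CHYLsep, or 0.20 and 0.30 without the replicate 3 libraries. Under reference gene scaling the VLDLsep value was 0.09, which is 0.21 above the median of all genes.

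Tpm3 (ENSMUSG00000027940, chromosome 3, 90072649 to 90100902, plus strand) ranged from 158 to 177 cpm over the 9 libraries. Its log2 fold change was -0.06 ± 0.05 in VLDLsep, whose libraries all lay below CTRL by a margin smaller than the rounding used here, and -0.05 ± 0.05 in CHYLsep, which overlapped CTRL. The ratio of Tpm3 to Tpm4 counts was 0.264 ± 0.01 in CTRL, 0.218 ± 0.00958 in VLDLsep and 0.210 ± 0.0111 in CHYLsep, with every particle library below CTRL. The level of Tpm3 is uncertain, since 26.9% of its 31-base words also occur in Tpm3-rs7, a related gene listed at between 755 and 826 cpm. The sum of Tpm3 and Tpm3-rs7 was 978, 931 and 998 cpm in CTRL, 977, 921 and 932 cpm in VLDLsep and 947, 965 and 971 cpm in CHYLsep. These sums overlapped between all groups.

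Among the members that cross-link or anchor filaments, vinculin was lower and filamin A was not. Vcl encodes vinculin, an adhesion protein that joins talin to actin (ENSMUSG00000021823, chromosome 14, 20929398 to 21033676, plus strand). It stood at 68.7, 74.1 and 52.9 cpm in CTRL, 29.7, 32.2 and 23.6 cpm in VLDLsep and 47.0, 45.6 and 29.8 cpm in CHYLsep. Both particle groups lay below CTRL, and they overlapped each other through CHYLsep replicate 3. In each group the replicate 3 library was the lowest.

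The log2 fold change of Vcl was -1.19 ± 0.189 in VLDLsep, 0.438 times the CTRL level, and -0.69 ± 0.178 in CHYLsep, 0.620 times the CTRL level. Without the replicate 3 libraries the values were -1.20 and -0.62. The end of Vcl overlaps Ap3m1, a gene on the other strand, which holds 25.3% of the 31-base words of Vcl. Whether the counting used strand is not given in the sources used here, so the counts of the shared stretch cannot be placed. Ap3m1 stood at 138, 135 and 128 cpm in CTRL, 154, 151 and 143 cpm in VLDLsep and 153, 155 and 148 cpm in CHYLsep, higher in every particle library. The sum of Vcl and Ap3m1 was 207, 209 and 181 cpm in CTRL, 184, 183 and 166 cpm in VLDLsep and 200, 201 and 178 cpm in CHYLsep, so both particle groups overlapped CTRL through CTRL replicate 3. Within each replicate number, the sums of both particle libraries lay below that of CTRL.

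Flna encodes filamin A, which joins filaments into orthogonal networks (ENSMUSG00000031328, chromosome X, 74223461 to 74249820, minus strand). It ranged from 1954 to 2438 cpm over the 9 libraries, with all groups overlapping. Against CTRL, its log2 fold change was 0.02 ± 0.091 in VLDLsep and -0.04 ± 0.091 in CHYLsep. None of its 31-base words occurred in another gene.

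Vim encodes vimentin, the intermediate filament protein of mesenchymal and many blood cells (ENSMUSG00000026728, chromosome 2, 13573927 to 13582826, plus strand). It stood at 1248, 1250 and 1548 cpm in CTRL, 1095, 1088 and 1287 cpm in VLDLsep and 1177, 1221 and 1353 cpm in CHYLsep. In every group the replicate 3 library was the highest, and the groups overlapped. Among libraries of the same replicate number, both particle libraries lay below CTRL for all 3 numbers. Against CTRL, it had a log2 fold change of -0.22 ± 0.096 in VLDLsep and -0.10 ± 0.096 in CHYLsep. Without the replicate 3 libraries the values were -0.19 and -0.06. Over the 22 alternative settings of the processing, they ran from -0.34 to -0.12 in VLDLsep and from -0.21 to -0.0 in CHYLsep.

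Srf, the transcription factor gene of the set (ENSMUSG00000015605, chromosome 17, 46548329 to 46556175, minus strand), stood at 92.2, 83.8 and 86.4 cpm in CTRL, 59.4, 52.7 and 47.3 cpm in VLDLsep and 71.3, 78.6 and 61.6 cpm in CHYLsep. The groups did not overlap, with VLDLsep lowest and CHYLsep between. The log2 fold change was -0.72 ± 0.098 in VLDLsep, 0.605 times the CTRL level, and -0.32 ± 0.095 in CHYLsep, 0.803 times the CTRL level. Without the replicate 3 libraries it was -0.65 and -0.23. None of its 31-base words occurred in another gene.

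As a description of the set, limma-voom called 5 of the 10 members lower in VLDLsep, where 17.9% of all genes tested were called lower, and 1 higher, where 17.8% were. In CHYLsep it called 5 lower, beside 13.0% of all genes, and 1 higher, beside 12.7%. With the replicate block, Vim was also called lower in both particle groups. Every VLDLsep library lay below every CTRL library for 6 members (23.7% of all genes), and every CHYLsep library for 5 (20.9% of all genes). Since the members were chosen from this contrast, nothing is read from these counts. The median log2 fold change of the members was -0.23 in VLDLsep and -0.14 in CHYLsep, and the CHYLsep mean lay between those of VLDLsep and CTRL for 7 of 10.

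The particle sizes were also compared with each other. The genes were chosen for the fall of Actb from CTRL and not for this difference, but in the same libraries, so p-values of the members here are not free of that choice. In the fit of the 3 groups, limma-voom called 0.0% of the 12637 genes in VLDLsep against CHYLsep, a count of 0, with 813 genes at an unadjusted p under 0.05. The edgeR quasi-likelihood test called 0 and DESeq2 24 genes (0.19%). Without the replicate 3 libraries of every group, limma-voom called 257 of 12386 genes (2.07%).

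Srf, Actg1, Actb and Vcl were lower with VLDL-sized than with chylomicron-sized particles. In the fit of the 3 groups with all 9 libraries and no replicate block, however, limma-voom did not call them. Srf had a log2 fold change of -0.41 ± 0.10 in VLDLsep against CHYLsep (limma-voom adjusted p = 0.51), with an interval of 2 SE from -0.61 to -0.21. DESeq2 gave Srf an adjusted p of 0.039, and limma-voom without the replicate 3 libraries -0.42 with an adjusted p of 0.0082. Actg1 had -0.22 ± 0.057 (limma-voom adjusted p = 0.51), with an interval from -0.34 to -0.11, and -0.26 without the replicate 3 libraries (adjusted p = 0.0048). Actb had -0.17 ± 0.058 (limma-voom adjusted p = 0.63), with an interval from -0.29 to -0.06, and -0.19 without the replicate 3 libraries (adjusted p = 0.014). Vcl had -0.50 ± 0.199 (limma-voom adjusted p = 0.73), with an interval from -0.90 to -0.10, and -0.58 without the replicate 3 libraries (adjusted p = 0.0006).

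Thus 0 of 10 members were called by limma-voom in that fit, 1 of 10 by DESeq2 and, by limma-voom, 4 of 10 without the replicate 3 libraries. With the replicate block, limma-voom called Vcl (adjusted p = 0.007), Srf (0.029) and Actg1 (0.048), and 147 of the 12637 genes. The correlations between same-numbered libraries of this contrast are given in the closing part. For 3 members, Actb, Actg1 and Srf, every VLDLsep library lay below every CHYLsep library, as for 5.63% of all genes tested. The other 6 members had log2 fold changes between -0.11 (Vim) and 0.06 (Flna), with limma-voom adjusted p between 0.90 and 0.99 and overlapping groups.

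Levels of different genes were compared per kilobase of transcript, as the CTRL mean of cpm divided by the median length of the coding transcripts. Actb led with 3569 ± 252 cpm per kb, rank 12 of the 11286 tested genes with a length. Cfl1 (2075 ± 120), Actg1 (1994 ± 138) and Pfn1 (1862 ± 56.8) followed, and these neighbours did not differ beyond their spread. Vim (679 ± 87.0), Tpm4 (308 ± 10.4) and Flna (267 ± 27.4) came next, then Tpm3 (78.9 ± 1.38, without the counts listed for Tpm3-rs7), Srf (33.4 ± 1.65) and Vcl (12.4 ± 2.09). In VLDLsep Cfl1 stood at 2022, Pfn1 at 1579 and Actg1 at 1456 cpm per kb, and Actb at 2521. In CHYLsep the values were 2847 for Actb, 2084 for Cfl1, 1700 for Actg1 and 1638 for Pfn1.

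The genes most like Actb were sought by the root mean square difference of log2 cpm profiles over the 9 libraries, each centred on its own mean, among 8664 genes with a mean of at least 10 cpm. The nearest were Ccna2, encoding cyclin A2 (0.0389), S1pr1, a sphingosine 1-phosphate receptor (0.0445), Alyref, an mRNA export factor (0.045), Mcmbp, a binding protein of the replicative helicase (0.0461), and Actg1 (0.0472). Ccna2 stood at 328, 316 and 343 cpm in CTRL, 226, 238 and 226 cpm in VLDLsep and 250, 263 and 249 cpm in CHYLsep. The log2 fold changes against CTRL were -0.52 and -0.37 for Ccna2, -0.53 and -0.37 for S1pr1, -0.48 and -0.38 for Alyref and -0.52 and -0.36 for Mcmbp, in VLDLsep and CHYLsep. Among the other members, Pfn1 ranked 721, Srf 1151, Vim 1761, Tpm3 2802, Cfl1 3352, Flna 4614, Tpm4 6790 and Vcl 7451. The measure counts the size of a change as well as its direction. Vcl, which fell further than Actb, thus ranked behind Tpm4, which rose. The fold changes of the nearest genes match those of Actb because the genes were sought by that match.

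Promoter windows were searched for the CArG box, the DNA element of SRF, in the form of 2 C, 6 bases of A or T and 2 G, which reads as the same form on both strands. The windows were the 250 bases before each start in RefSeq GRCm38.p6, and 482 of 32851 windows (1.47%) held a box. A window was matched for 9 of 10 members, all except Actb, and 3 of them held a box: Actg1 with 1, Srf with 2 and Vcl with 1. No box was in the windows of Cfl1, Pfn1, Vim, Tpm3, Tpm4 or Flna, which says only that this form is not in those bases. The stretches around the boxes are shown because their 3 genes are among the members with the lowest levels relative to CTRL. Each is written 5′ to 3′ on the strand of the gene with the boxes in capitals: chr11:120348546-120348615 (minus strand) for Actg1, chr17:46556185-46556274 (minus strand) for Srf and chr14:20929148-20929210 (plus strand) for Vcl.
Actg1: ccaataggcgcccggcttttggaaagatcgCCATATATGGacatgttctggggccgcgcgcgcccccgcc
Srf: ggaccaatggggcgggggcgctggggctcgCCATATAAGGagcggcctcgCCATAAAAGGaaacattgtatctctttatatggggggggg
Vcl: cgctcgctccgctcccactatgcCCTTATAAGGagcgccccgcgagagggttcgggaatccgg

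The box of Actg1 lies 90 to 81 bases before the start, those of Srf 82 to 73 and 62 to 53 bases before, and that of Vcl 227 to 218 bases before. Outside the members, 112 tested genes had a box in their window. In VLDLsep, 25% of them were called lower and 19.6% higher, beside 18.7% and 18.6% of the 9350 tested genes with a window, with a median log2 fold change of 0.00 in both sets. In CHYLsep, 17.9% were called lower and 17.9% higher, beside 13.6% and 13.3%. A match of letters is a description and not evidence of binding.

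The other genes of the cytoskeleton were followed through 13 lists, 12 of them described singly, with 224 genes in all, of which 190 passed the filter. In VLDLsep, 54 of the 190 (28.4%) were called lower and 36 (18.9%) higher, beside 17.9% and 17.8% of all genes tested, with a median log2 fold change of -0.01. In CHYLsep, 46 (24.2%) were called lower and 21 (11.1%) higher, beside 13.0% and 12.7%, with a median of 0.00, as over all genes tested in both. These shares of all genes, called with TMM and without the replicate block, also stand beside the counts of each list below. The counts moved with the fit: with the replicate block, 66 were called lower and 55 higher in VLDLsep and 61 lower and 47 higher in CHYLsep. With library size only, 76 were lower and 22 higher in VLDLsep and 62 lower and 15 higher in CHYLsep, and with reference gene scaling 82 and 18, and 71 and 14. Calls over all 12637 genes tested rose with the block too, to 3012 lower and 3046 higher in VLDLsep and 2481 lower and 2468 higher in CHYLsep. No list gene was called between VLDLsep and CHYLsep by limma-voom in the fit of the 3 groups, as for all genes tested. DESeq2 called 2 of them lower in VLDLsep, Zyx (limma-voom log2 fold change -0.36, DESeq2 adjusted p = 0.0035) and Fmnl1 (-0.27, 0.022). Without the replicate 3 libraries, limma-voom called 7 lower, these 2 among them, and 1 higher. Genes given below as not called were so with TMM; under reference gene scaling Actr3, Nckap1l, Cyfip1, Cap1, Tmsb4x, Capg, Msn, Tln1, Cdc42 and Mrtfa were called lower in VLDLsep, and Actr3, Nckap1l, Cyfip1, Tmsb4x, Msn, Itgam and Lmna in CHYLsep. Where a count of 5 or fewer genes takes in names outside the naming rule, these were named after their values were seen.

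**Figure D3:**
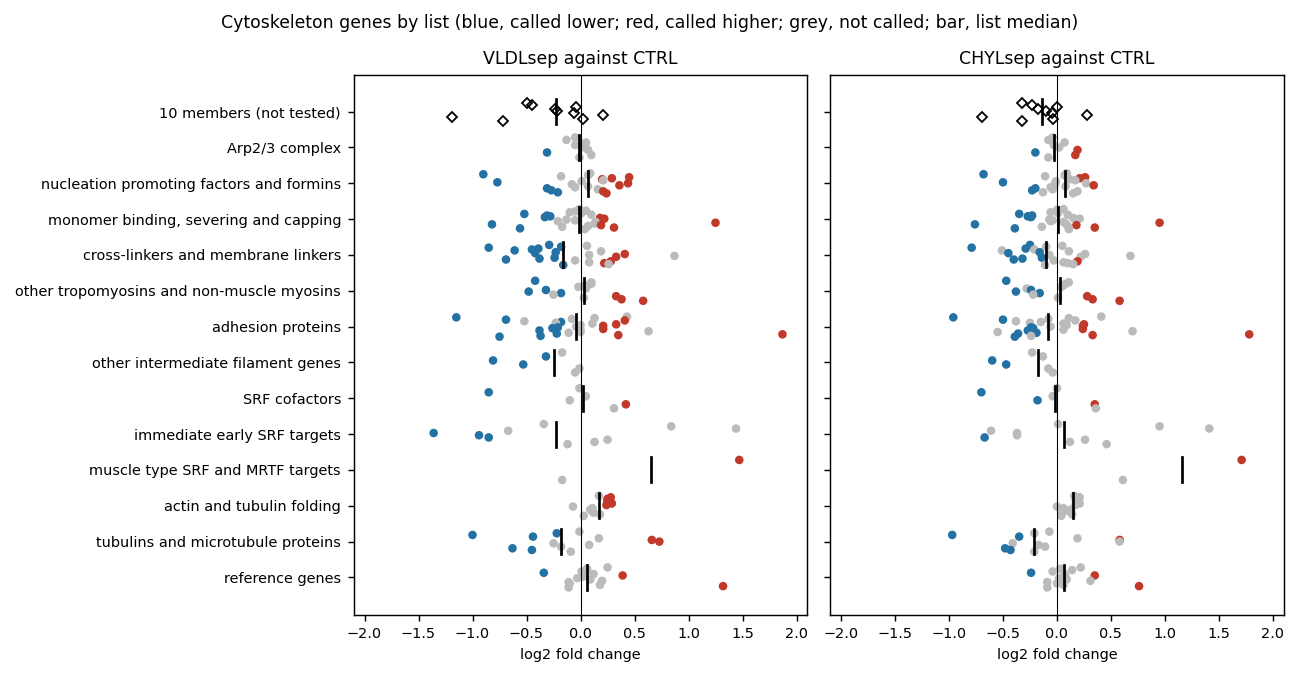
Log2 fold change (horizontal axis) of each tested gene in 13 lists, 12 of the cytoskeleton and 1 of reference genes, for VLDLsep (left) and CHYLsep (right) against CTRL; blue points were called lower, red higher, grey not called, open diamonds are the 10 members and bars are medians. The lists straddle 0 with TMM scaling, with the median of cross-linkers at -0.16 and of folding genes at 0.18 in VLDLsep; the folding genes lose their calls under reference gene scaling.

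The Arp2/3 complex, which starts branched filaments, was covered by 9 tested genes. Of these, 1 was called lower and 0 higher in VLDLsep by limma-voom, and 1 lower and 2 higher in CHYLsep, with medians of -0.01 and -0.03. Scaling turned the CHYLsep balance: 2 were lower and 0 higher with library size only and 4 and 0 under reference gene scaling, beside 3 and 0, and 4 and 0, in VLDLsep. Arpc4 was the gene called lower, from 453 ± 6.27 cpm in CTRL to 366 ± 17.7 in VLDLsep (log2 fold change -0.31 ± 0.05, limma-voom adjusted p = 0.00073) and 393 ± 14.7 in CHYLsep (-0.20 ± 0.05, adjusted p = 0.012). Actr3, encoding the Arp3 subunit, stood at 1334 ± 52.9, 1222 ± 53.3 and 1258 ± 24.9 cpm in CTRL, VLDLsep and CHYLsep. For VLDLsep its limma-voom adjusted p was 0.068, 0.0062 with the replicate block and 0.04 without VLDLsep replicate 3. Arpc2 stood at 1047 ± 30.1, 1054 ± 40.9 and 1062 ± 29.0 cpm and was not called.

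The genes called higher in CHYLsep were Arpc3 and Arpc5. Arpc5 stood at 867 ± 23.0 cpm in CTRL and 972 ± 18.6 in CHYLsep (limma-voom adjusted p = 0.018). Its call was lost without CTRL replicate 1 (adjusted p = 0.058), CTRL replicate 2 (0.081) or CHYLsep replicate 2 (0.068), and with library size only (0.16) or reference gene scaling (0.31). In VLDLsep Arpc5 was called only with the replicate block among the fits with all 9 libraries and the same filter (limma-voom adjusted p = 0.042 against 0.11).

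Nucleation promoting factors and formins, which switch on filament assembly, split by direction. Of 21 tested, 5 were called lower in VLDLsep (Was, Wipf1, Wasf2, Abi3 and Fmnl1) and 7 higher. In CHYLsep 4 were called lower (Was, Wasf2, Abi3 and Fmnl1) and 3 higher (Cyfip2, Hcls1 and Daam1), or 5 higher with the replicate block. The median was 0.07 in both, and the balance turned with scaling, to 8 lower and 4 higher in VLDLsep with library size only. Fmnl1, a leukocyte formin, fell from 356 ± 26.2 cpm to 209 ± 2.1 in VLDLsep (log2 fold change -0.77 ± 0.055, limma-voom adjusted p = 3.6e-06) and 251 ± 6.07 in CHYLsep (-0.50 ± 0.055, adjusted p = 0.00011).

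Abi3, a subunit of the WAVE regulatory complex, fell from 28.6 ± 2.13 to 15.4 ± 1.99 cpm in VLDLsep (limma-voom adjusted p = 5.6e-05) and 17.8 ± 0.716 in CHYLsep (adjusted p = 0.00046). Cyfip2, another subunit, rose from 40.1 ± 1.56 to 54.8 ± 1.25 cpm in VLDLsep (limma-voom adjusted p = 7.3e-05) and 48.1 ± 0.144 in CHYLsep (adjusted p = 0.0037). Its more abundant paralog Cyfip1 stood at 440 ± 38.9, 388 ± 29.4 and 407 ± 30.9 cpm in CTRL, VLDLsep and CHYLsep. Cyfip1 was not called in VLDLsep (limma-voom adjusted p = 0.11) or CHYLsep (0.34), whereas the replicate block called it lower in both (0.00067 and 0.016), as did reference gene scaling (0.0033 and 0.026). In VLDLsep it was also called with library size only (0.01), without VLDLsep replicate 3 (0.044) and without the replicate 3 libraries of every group (0.0038). Nckap1l, the blood cell form of a further subunit, stood at 552 ± 18.7, 532 ± 15.8 and 529 ± 5.65 cpm and was not called.

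Among 26 tested genes that bind monomers or sever or cap filaments, 6 were called lower and 5 higher in VLDLsep, the latter Dstn, Pfn2, Twf1, Gmfb and Tmod3, or 11 lower and 2 higher with library size only and 12 and 2 under reference gene scaling. In CHYLsep 6 were called lower and 3 higher (Pfn2, Twf1 and Tmod3), or 6 higher with the replicate block, and the medians were -0.01 and 0.01. Pfn2, the minor profilin here, rose from 2.34 ± 0.454 cpm to 5.52 ± 0.242 in VLDLsep (log2 fold change 1.25 ± 0.156, limma-voom adjusted p = 0.00015) and 4.48 ± 0.322 in CHYLsep (0.95 ± 0.16, adjusted p = 0.0016), at levels far below Pfn1. Ssh2, a phosphatase that activates cofilin, fell from 68.7 ± 11.7 cpm to 38.6 ± 3.59 in VLDLsep (limma-voom adjusted p = 0.00053) and 40.1 ± 3.17 in CHYLsep (adjusted p = 0.0013).

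The most abundant genes of that list had small differences. Tmsb4x encodes thymosin beta 4, which sequesters monomers, and stood at 1298 ± 97.6, 1148 ± 47.4 and 1178 ± 74.9 cpm in CTRL, VLDLsep and CHYLsep. In VLDLsep its limma-voom adjusted p was 0.065, but 0.0011 with the replicate block, 0.019 without CTRL replicate 3 and 0.048 without CHYLsep replicate 3; in CHYLsep it was 0.16, and 0.006 with the block. Cap1, a cyclase-associated protein that recycles monomers, stood at 1726 ± 40.1, 1715 ± 15.4 and 1798 ± 22 cpm. Capg, a capping protein of macrophages, stood at 957 ± 14.2, 949 ± 42.4 and 958 ± 29.7 cpm, and neither was called.

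With TMM scaling, cross-linkers and membrane linkers had more calls in the lower direction than any other list in VLDLsep. Of 23 tested, 12 were called lower and 4 higher in VLDLsep (Pls3, Ezr, Sptan1 and Iqgap1), and 8 lower and 1 higher (Pls3) in CHYLsep, with medians of -0.16 and -0.10. With the replicate block, 3 were higher in CHYLsep. Under reference gene scaling 13 were lower in VLDLsep, as many as among the adhesion genes. Lcp1, the leukocyte bundling protein L-plastin, fell from 2671 ± 57.4 cpm to 2259 ± 24.6 in VLDLsep (log2 fold change -0.24 ± 0.04, limma-voom adjusted p = 0.00091). In CHYLsep it stood at 2427 ± 27.2 cpm (limma-voom adjusted p = 0.028), a call lost when any single CTRL or CHYLsep library was left out: 0.08, 0.055 and 0.06 without CTRL replicates 1, 2 and 3, and 0.063, 0.06 and 0.085 without CHYLsep replicates 1, 2 and 3. Msn, encoding moesin, which ties filaments to the membrane, stood at 1756 ± 18.7, 1695 ± 32.6 and 1718 ± 17.9 cpm and was not called.

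Add3, an adducin of the membrane skeleton, fell from 16.5 ± 2.07 cpm to 9.12 ± 0.112 in VLDLsep (limma-voom adjusted p = 0.00018) and 9.47 ± 0.589 in CHYLsep (adjusted p = 0.00041). Marcksl1, a membrane-bound relative of the MARCKS protein, fell from 97.8 ± 20.7 to 59.6 ± 1.99 cpm in VLDLsep (limma-voom adjusted p = 0.0015). In CHYLsep it stood at 73.4 ± 6.16 cpm (limma-voom adjusted p = 0.036), a call lost without CHYLsep replicate 1 (0.093) or 3 (0.1) and without VLDLsep replicate 1 (0.051) or 2 (0.052), libraries that enter through the shared estimate of spread. Iqgap1, a scaffold of the cell cortex, rose from 983 ± 79.9 to 1231 ± 68.5 cpm in VLDLsep (limma-voom adjusted p = 0.0084). In CHYLsep Iqgap1 stood at 1147 ± 105 cpm (limma-voom adjusted p = 0.063), and was called with the replicate block (0.0025), without CTRL replicate 3 (0.024) and without CHYLsep replicate 2 (0.026).

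Among 14 tested genes of other tropomyosins and non-muscle myosins, 4 were called lower (Myh10, Myo1c, Myo1e and Myo1f) and 3 higher (Tpm1, Myo5a and Ppp1r12a), in VLDLsep and in CHYLsep, with medians of 0.04 and 0.02. Tpm1, a further tropomyosin gene, rose from 96.1 ± 4.01 cpm to 143 ± 5.76 in VLDLsep (log2 fold change 0.58 ± 0.063, limma-voom adjusted p = 6.1e-05) and 144 ± 11.2 in CHYLsep (0.58 ± 0.063, adjusted p = 9.5e-05). Myo5a, a cargo-carrying myosin, rose from 262 ± 8.79 to 331 ± 9.58 cpm in VLDLsep (limma-voom adjusted p = 0.00068) and 318 ± 17.7 in CHYLsep (adjusted p = 0.0032, or 0.061 under reference gene scaling). Myo1e, a membrane-binding class I myosin, fell from 272 ± 17.4 to 195 ± 12.7 cpm in VLDLsep (limma-voom adjusted p = 0.00065) and 209 ± 17.6 in CHYLsep (adjusted p = 0.0041). Myh9, the non-muscle myosin heavy chain of these cells, stood at 891 ± 19.9, 955 ± 42.1 and 960 ± 67.1 cpm and its light chain Myl6 at 297 ± 23.2, 292 ± 2.41 and 304 ± 19.1 cpm, neither called.

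Of 27 tested adhesion genes, 9 were called lower and 6 higher in VLDLsep and 8 lower and 5 higher (Lims1, Itgb2, Ptk2, Tns1 and Tns3) in CHYLsep, with medians of -0.04 and -0.08. Under reference gene scaling 13 were lower and 3 higher in VLDLsep and 12 and 4 in CHYLsep, and with library size only 12 and 3, and 11 and 4. Tns1, encoding tensin 1 of fibrillar adhesions, rose from 3.66 ± 0.657 cpm to 13.5 ± 2.62 in VLDLsep (log2 fold change 1.87 ± 0.243, limma-voom adjusted p = 0.00019) and 12.8 ± 2.99 in CHYLsep (1.78 ± 0.244, adjusted p = 0.00045). Evl, a filament elongation factor of the Ena/VASP family, fell from 1.28 ± 0.238 to 0.573 ± 0.166 cpm in VLDLsep (limma-voom adjusted p = 0.0068). Evl stood at 0.643 ± 0.0882 cpm in CHYLsep (limma-voom adjusted p = 0.02), a call lost without CTRL replicate 1 (0.073), CHYLsep replicate 1 (0.052) or CHYLsep replicate 3 (0.071), and with DESeq2 (0.058).

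Tln1 encodes talin 1, the partner of vinculin at integrins, and stood at 644 ± 8.82, 596 ± 14.5 and 565 ± 33.0 cpm in CTRL, VLDLsep and CHYLsep. Tln1 was called lower in CHYLsep (limma-voom adjusted p = 0.018), but not without CTRL replicate 2 (0.063), CHYLsep replicate 2 (0.076) or CHYLsep replicate 3 (0.058), and not in VLDLsep (0.11). Itgam, the integrin alpha M chain of macrophages, stood at 595 ± 22.2, 527 ± 38.4 and 536 ± 27.8 cpm. It was called lower in VLDLsep (limma-voom adjusted p = 0.049), but not without CTRL replicate 1 (0.12), CTRL replicate 2 (0.14), VLDLsep replicate 1 (0.067), VLDLsep replicate 3 (0.15) or CHYLsep replicate 2 (0.069), nor by the edgeR quasi-likelihood test (0.052), and in CHYLsep (0.11) only with the block (0.007) among the fits with TMM and all libraries. Itgb1, the integrin beta 1 chain, stood at 733 ± 21.4, 791 ± 28.1 and 765 ± 35.3 cpm and was called in VLDLsep with the replicate block (limma-voom adjusted p = 0.022 against 0.12).

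Beside vimentin, 6 of 12 other intermediate filament genes passed the filter, and the keratins Krt8, Krt18 and Krt19 did not. In VLDLsep 3 of the 6 were called lower and 0 higher by limma-voom (median -0.25), and in CHYLsep 2 lower and 0 higher (median -0.18). Those called were lamins of the nuclear envelope. Lmnb1 fell from 158 ± 18.9 cpm to 89.9 ± 8.49 in VLDLsep (log2 fold change -0.81 ± 0.094, limma-voom adjusted p = 8.9e-05) and 104 ± 7.64 in CHYLsep (-0.60 ± 0.093, adjusted p = 0.00094). Lmnb2 fell from 46.0 ± 2.22 to 31.8 ± 1.87 cpm in VLDLsep (limma-voom adjusted p = 9.3e-05) and 33.1 ± 0.476 in CHYLsep (adjusted p = 0.00032).

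Lmna fell from 652 ± 31.3 cpm to 521 ± 13.4 in VLDLsep (limma-voom adjusted p = 0.00073) and stood at 595 ± 24.0 in CHYLsep (adjusted p = 0.092, or 0.036 with the replicate block). The ratio of Vim to Lmna counts overlapped CTRL in both particle groups, at 2.06 ± 0.166 in CTRL, 2.22 ± 0.159 in VLDLsep and 2.11 ± 0.242 in CHYLsep. Within each replicate number, the VLDLsep ratio lay above that of CTRL. Plec, a linker between vimentin and actin filaments, stood at 383 ± 36.7, 369 ± 26.6 and 372 ± 31.3 cpm and was not called. Nes, encoding nestin, stood at 321 ± 16.3, 321 ± 45.0 and 305 ± 39.7 cpm and was not called.

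Among genes that signal to the filaments, Rock2, a kinase that raises myosin contraction, rose from 89.2 ± 3.63 cpm to 127 ± 4.39 in VLDLsep (log2 fold change 0.51 ± 0.049, limma-voom adjusted p = 2.7e-05) and 121 ± 2.39 in CHYLsep (0.45 ± 0.049, adjusted p = 0.00011). Cdc42, a GTPase of filopodia, stood at 827 ± 31.5, 827 ± 9.53 and 837 ± 26.7 cpm in CTRL, VLDLsep and CHYLsep. Its log2 fold change in VLDLsep was 0.00 with TMM and -0.12 with reference gene scaling, near the median of all genes under each.

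Of 8 cofactors of SRF, 6 passed the filter, of which 1 was called lower and 1 higher in VLDLsep and 2 lower and 1 higher in CHYLsep (2 higher with the replicate block), with medians of 0.02 and -0.02; Myocd stood at no more than 0.0428 cpm on average and Fhl2 at 0 in every group. Mrtfa, the actin-sensing cofactor that was more abundant, stood at 147 ± 8.92, 137 ± 8.03 and 129 ± 1.33 cpm in CTRL, VLDLsep and CHYLsep. It was called lower in CHYLsep (limma-voom adjusted p = 0.044) and not in VLDLsep (0.22). That call was lost without any CTRL library (0.061, 0.063 and 0.12 without replicates 1, 2 and 3), without any CHYLsep library (0.1, 0.086 and 0.094) and without VLDLsep replicate 2 (0.061).

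Mrtfb, its relative, rose from 23.0 ± 0.705 cpm to 30.7 ± 1.14 in VLDLsep (log2 fold change 0.42 ± 0.063, limma-voom adjusted p = 0.00045) and 29.2 ± 1.23 in CHYLsep (0.35 ± 0.063, adjusted p = 0.0024). Elk3, a ternary complex factor that joins SRF on DNA, fell from 55.5 ± 7.15 to 30.7 ± 2.70 cpm in VLDLsep (-0.85 ± 0.103, limma-voom adjusted p = 0.00012) and 34.2 ± 2.84 in CHYLsep (-0.70 ± 0.101, adjusted p = 0.00063). The related factors Elk1 (23.0 ± 1.65 cpm in CTRL) and Elk4 (36.2 ± 1.45 cpm in CTRL) were not called in either particle group. Scai, a repressor of MRTF, stood at 3.17 ± 0.504, 3.93 ± 0.37 and 4.06 ± 0.238 cpm, with a limma-voom adjusted p of 0.14 in VLDLsep and of 0.11 in CHYLsep (0.049 with the replicate block).

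Of 10 tested immediate early genes under SRF, 3 were called lower (Egr4, Fos and Ier2) and 0 higher in VLDLsep by limma-voom, and 1 lower (Ier2) and 0 higher in CHYLsep, with medians of -0.23 and 0.06. With the replicate block, 4 were lower and 4 higher in VLDLsep and 1 lower and 3 higher in CHYLsep, and without the replicate 3 libraries of every group 3 and 4, and 1 and 4. Fos, an AP-1 subunit, fell from 10.2 ± 0.409 cpm to 5.48 ± 1.78 in VLDLsep (log2 fold change -0.94 ± 0.233, limma-voom adjusted p = 0.0093) and stood at 8.0 ± 2.01 in CHYLsep (-0.37 ± 0.211, adjusted p = 0.23). Ier2 fell from 21.3 ± 2.70 to 12.0 ± 2.67 cpm in VLDLsep (limma-voom adjusted p = 0.0091) and stood at 13.7 ± 3.86 in CHYLsep (adjusted p = 0.033). The latter call was lost without CTRL replicate 1 (0.11), CTRL replicate 2 (0.075), CHYLsep replicate 1 (0.062) or CHYLsep replicate 3 (0.1).

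Egr4 was near the filter, at 0.874 ± 0.267, 0.364 ± 0.243 and 0.659 ± 0.104 cpm. It was called in VLDLsep (limma-voom adjusted p = 0.025), but not without CTRL replicate 2 (0.082), VLDLsep replicate 2 (0.11) or VLDLsep replicate 3 (0.075), nor by DESeq2 (0.056). Junb, another AP-1 subunit, stood at 89.6 ± 13.4, 106 ± 5.03 and 107 ± 8.37 cpm. Its limma-voom adjusted p was 0.064 in VLDLsep and 0.068 in CHYLsep, 0.022 and 0.021 with the replicate block, and 0.0034 and 0.0043 without CTRL replicate 3. Mcl1, a survival gene of the BCL2 family, stood at 372 ± 54.3, 405 ± 31.8 and 402 ± 25.9 cpm (limma-voom adjusted p = 0.32 in VLDLsep and 0.40 in CHYLsep); it was called in VLDLsep with the replicate block (0.034) and without CTRL replicate 3 (0.025), and in CHYLsep without CTRL replicate 3 (0.039).

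Most muscle-type targets of SRF and MRTF were below the filter, 11 of 13. Acta2, encoding smooth muscle actin, rose from 0.609 ± 0.329 cpm in CTRL to 1.60 ± 0.323 in VLDLsep (log2 fold change 1.47 ± 0.322, limma-voom adjusted p = 0.0048) and 1.87 ± 0.154 in CHYLsep (1.71 ± 0.315, adjusted p = 0.0027), at a very low level beside Actb. Tagln, encoding transgelin, stood at 0.437 ± 0.118, 0.376 ± 0.0143 and 0.666 ± 0.0817 cpm and was not called. The summed smooth muscle markers moved with treatment too, but Acta2 is itself the most abundant of these 4 genes. Myh11 and Cnn1 did not pass the filter, so the sum is not separate from this result. A part of other cells in it was not tested.

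Genes that fold actin and tubulin, the CCT chaperonin and its helpers, were called in the higher direction with TMM scaling and not with every scaling. In VLDLsep 6 of 14 were called higher and 0 lower by limma-voom, but 3 higher with library size only and 0 higher and 1 lower with reference gene scaling; with the replicate block 10 were higher. In CHYLsep 0 were called by limma-voom, and 9 were higher with the replicate block, with list medians of 0.18 and 0.15. Cct3 stood at 360 ± 18.2 cpm in CTRL, 436 ± 33.4 in VLDLsep (log2 fold change 0.28 ± 0.069, limma-voom adjusted p = 0.01, or 0.058 with reference gene scaling) and 416 ± 28.3 in CHYLsep. Its CHYLsep value was at the threshold (limma-voom adjusted p = 0.05), and past it with the replicate block (0.00049), without CTRL replicate 3 (0.034) and without VLDLsep replicate 3 (0.026).

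Cct4 stood at 380 ± 20.8, 451 ± 23.0 and 427 ± 26.8 cpm in CTRL, VLDLsep and CHYLsep, with a limma-voom adjusted p of 0.011 in VLDLsep (0.069 with reference gene scaling) and of 0.077 in CHYLsep (0.0019 with the replicate block and 0.037 without CTRL replicate 3). Cct7 stood at 464 ± 33.9, 568 ± 62.6 and 537 ± 51.4 cpm. Its limma-voom adjusted p in VLDLsep was 0.029, but 0.1 without CTRL replicate 1, 0.088 without CTRL replicate 2, 0.089 without VLDLsep replicate 3 and 0.11 with reference gene scaling; in CHYLsep it was 0.12, and 0.0004 with the block. Cct5 stood at 476 ± 40.9, 564 ± 48.2 and 539 ± 42.0 cpm. Its limma-voom adjusted p in VLDLsep was 0.039, but 0.15 and 0.096 without CTRL replicates 1 and 2, 0.05 and 0.12 without VLDLsep replicates 1 and 3, 0.052 and 0.051 without CHYLsep replicates 1 and 2, and 0.19 with reference gene scaling. In CHYLsep Cct5 had a limma-voom adjusted p of 0.14, and of 0.0013 with the block. Tcp1, the founding subunit, stood at 607 ± 57.7, 692 ± 85.3 and 670 ± 54.2 cpm, and was called only with the replicate block among the fits with all libraries (limma-voom adjusted p = 0.0014 and 0.0092, against 0.16 and 0.31).

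Tubulins and microtubule proteins, the other filament system, had 5 genes called lower (Tuba1a, Tuba1b, Tubb5, Tubb6 and Stmn1) and 2 higher (Tuba4a and Tubb2a) of 13 tested in VLDLsep. In CHYLsep 4 were lower (Tuba1a, Tuba1b, Tubb5 and Tubb6) and 1 higher (Tuba4a), or 8 lower and 3 higher with the replicate block, and the medians were -0.18 and -0.21. Tuba1a fell from 103 ± 8.22 cpm to 51.3 ± 4.10 in VLDLsep (log2 fold change -1.0 ± 0.088, limma-voom adjusted p = 1.5e-05) and 52.6 ± 5.62 in CHYLsep (-0.97 ± 0.088, adjusted p = 3e-05). Tubb5, an abundant beta-tubulin, fell from 1636 ± 170 to 1053 ± 53.7 cpm in VLDLsep (limma-voom adjusted p = 0.0001) and 1173 ± 62.5 in CHYLsep (adjusted p = 0.001). Tuba1b, an abundant alpha-tubulin, fell from 2161 ± 211 to 1594 ± 78.2 cpm in VLDLsep (limma-voom adjusted p = 0.0011) and 1698 ± 107 in CHYLsep (adjusted p = 0.0064).

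The ratios of Actb to Tuba1b and to Tubb5 overlapped CTRL in both particle groups. Within each replicate number, the ratio to Tubb5 was higher in both particle libraries than in CTRL. The ratio to Tuba1b was lower in VLDLsep than in CTRL for each number, and in CHYLsep it went both ways. For Tuba1b the ratio was 2.62 ± 0.0834 in CTRL, 2.51 ± 0.171 in VLDLsep and 2.66 ± 0.246 in CHYLsep. For Tubb5 it was 3.46 ± 0.149, 3.79 ± 0.265 and 3.85 ± 0.335. Tuba1c stood at 519 ± 61.7, 582 ± 58.9 and 591 ± 77.5 cpm, and was called higher with the replicate block (limma-voom adjusted p = 0.0016 in VLDLsep and 0.001 in CHYLsep, against 0.26 and 0.24). Tubb2a stood at 22 ± 6.43, 36.3 ± 9.30 and 32.5 ± 7.32 cpm. Its limma-voom adjusted p in VLDLsep was 0.028, but 0.099 without CTRL replicate 1, 0.1 without CTRL replicate 2 and 0.084 without VLDLsep replicate 3. In CHYLsep Tubb2a had 0.092 by limma-voom, an adjusted p of 9.7e-06 with the replicate block, of 0.027 without CTRL replicate 3 and of 0.047 without VLDLsep replicate 3.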

How the data were processed

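RNA of 9 libraries of RAW 264.7 macrophages was sequenced as paired ends. The authors deposited estimated counts per gene, made with Salmon 0.14.1 on GENCODE transcripts of GRCm38.p6 and summarized with tximport. The methods describe scaling by transcript length and library size; among values above 10 in the table, the share of whole numbers (tolerance 1e-06) was 58.3%, and whether the table holds that step was not tested. A gene entered the fit (12637 did) when 3 or more libraries held over 10 counts of it. Counts were TMM-scaled and fitted for the 3 groups in limma-voom (limma 3.58.1, edgeR 4.0.16, R 4.3.3), with Benjamini-Hochberg adjustment over all genes kept. The steps were tested on simulated data. Alternatives were the edgeR quasi-likelihood test and DESeq2 1.42.0 on rounded counts, limma-trend, other scalings and filters, fits of only the groups compared, the replicate number as a block, and libraries left out. Symbols were found for 54346 of 54432 gene IDs. Positions, transcript lengths and shared words came from a GENCODE annotation of the same build.

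Deviations from the group means correlated between same-numbered libraries of CTRL and VLDLsep (r = 0.239, 0.214 and 0.411) and of CTRL and CHYLsep (r = 0.183, 0.130 and 0.457), so the numbers were taken to pair these libraries, although CHYLsep replicates 1 and 2 each correlated better with the CTRL library of the other number (r = 0.192 and 0.226); the labels give the numbers and nothing further on pairing.

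The members and lists were chosen with earlier results of these data known. By rule, the genes named are the members, all SRF cofactors and reference genes, in each other list the 3 tested genes of highest mean cpm and the 2 others with the largest absolute log2 fold change among those called in VLDLsep, and the 5 genes nearest to Actb in profile. Some genes and a list that this rule takes in are not reported here.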

Additional observations from a re-analysis of the deposited data

How the results depend on the processing

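Of 176 tested values of single genes, 106 kept their direction and side of the threshold in all 22 settings. Among these 176 values, the replicate block gained 33 calls, lost 0 and changed no other call. Leaving out 1 library lost the call of 12 of these values and gained that of 15. Genes called in CHYLsep against CTRL numbered 4949 with the replicate block, against 3249. Genes called in VLDLsep against CHYLsep numbered 0 in limma-voom and the edgeR quasi-likelihood test, 24 in DESeq2, 257 without replicate 3 of every group and 0 to 1 with 1 library left out. For that contrast the replicate block called 147, among them 3 of the 10 members (Vcl, Srf and Actg1) and 4 cytoskeleton list genes (3 lower and 1 higher). Its same-numbered libraries correlated with r = 0.0957, 0.176 and 0.496. Not every library correlated best with its own number (VLDLsep replicate 1 with CHYLsep replicate 2, r = 0.259), which also held between CTRL and CHYLsep. Cytoskeleton list genes called lower numbered 82 (VLDLsep) and 71 (CHYLsep) under reference gene scaling. Those called higher in VLDLsep numbered 22 with library size only, 18 under reference gene scaling and 55 with the replicate block, and in CHYLsep 47 with the block and 44 without replicate 3 of every group. The Actb log2 fold change in VLDLsep was -0.59 with library size only, -0.63 under reference gene scaling and -0.43 without replicate 3 of every group, and in CHYLsep -0.40, -0.43 and -0.23; leaving out 1 library gave -0.54 to -0.44 and -0.37 to -0.27. Under reference gene scaling, Cdc42 (-0.12, limma-voom adjusted p = 0.02) and Gusb (-0.11, adjusted p = 0.032) changed direction in VLDLsep, where the median of all genes moved from 0.00 to -0.13. With 3 libraries a group and 22393893 to 22856792 counts each, the SE of the log2 fold change in VLDLsep was 0.058 for Actb, 0.322 for Acta2 and 0.411 for Egr4.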

Other observations

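A few cytoskeletal genes outside the naming rule are given here, chosen after their values were seen. Zyx, encoding zyxin of focal adhesions, fell from 204 ± 9.97 cpm in CTRL to 121 ± 6.30 in VLDLsep (log2 fold change -0.75 ± 0.066, limma-voom adjusted p = 1.4e-05) and 156 ± 11.4 in CHYLsep (-0.39 ± 0.065, adjusted p = 0.0015). Coro1a, a coronin of leukocytes that acts on Arp2/3 branches, fell from 807 ± 43.3 to 565 ± 36.2 cpm in VLDLsep (limma-voom adjusted p = 8.6e-05) and 635 ± 20.6 in CHYLsep (adjusted p = 0.0018). Twf2, a twinfilin that binds monomers and caps filaments, fell from 73.0 ± 3.53 to 49.4 ± 0.876 cpm in VLDLsep (limma-voom adjusted p = 2e-05) and 55.6 ± 1.19 in CHYLsep (adjusted p = 0.00032). Tuba4a, a further alpha-tubulin, rose from 147 ± 23.2 to 233 ± 28.5 cpm in VLDLsep (limma-voom adjusted p = 0.002) and 219 ± 28.1 in CHYLsep (adjusted p = 0.0066), opposite to Tuba1a, Tuba1b and Tubb5.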
